A study of Mus musculus with 8 samples.

Results

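The 9 genes described here mark stages of T cell development in the thymus, or naive and recently exported T cells: Dntt, Rag1, Rag2, Ptcra, Cd24a, Sox4, Cd8a, Cd8b1 and Cd55. They were chosen by name from the 39056 genes of the count table, and 6 of the 9 passed the filter on low counts that left 12619 genes for testing. RNA was sequenced from CD4+ T cells, isolated by flow cytometry from the spleen and lymph nodes of each sample combined, in 2 groups that differ in 1 retroviral T cell receptor (TCR) alpha chain, ANT or SAS. The strain is labelled C57BL/6J and the genotype of both groups CD4-Cre TCRβtg Tcra-/-, so that the ANT and SAS cells alike carry a TCR beta transgene and a Cre recombinase under Cd4 control and have no endogenous TCR alpha chain. Marrow transduced with the ANT or the SAS chain was given to mice, and the T cells that develop from it bear 1 receptor per group, called a clone here. Each clone had 4 libraries (1, 3, 4 and 5 of ANT and 1, 2, 3 and 6 of SAS, by the replicate numbers of the labels). The age of the mice, the time after transfer, the element that drives the beta transgene, the sorting gates beyond CD4, any T cells left from the host and whether each library came from its own mouse are not given in the sources used here, so the p-values measure the spread between these libraries, which may be partly technical.

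Developing T cells assemble their receptor genes in the thymus. The recombinase subunits RAG1 and RAG2 cut the DNA, the terminal transferase encoded by Dntt adds nucleotides without a template to the junctions, and the product of Ptcra, the pre-TCR alpha chain, pairs with the first successful beta chain. Thymocytes then carry both CD4 and CD8 before they settle on 1 of the co-receptors. CD24 (heat stable antigen, Cd24a) and the transcription factor Sox4 are high in immature thymocytes and decline with maturation, whereas CD55, a membrane protein that disarms complement convertases, increases on T cells as they mature after export.

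Library totals were 27600959 to 31810799 counts, and 16648 to 18340 genes had a count in a library. The label CD4+ T cell was checked against 9 identity genes, all of which were tested. Cd4 was at 936 ± 59.8 CPM (counts per 1e6 of the scaled library size, mean ± SD, n = 4) in ANT and 907 ± 66.6 in SAS, and Cd3e at 515 ± 45.3 and 507 ± 18.6. Of the 9 genes, 1 was called higher in SAS (Cd28, log2 fold change SAS minus ANT 0.74) and 1 higher in ANT (Trac, the TCR alpha constant region, -0.65). The ANT libraries fell into pairs: a chi-square statistic per gene was 10.64 between replicates 1 and 3 and 21.95 between replicates 4 and 5, but 101.8 to 138.8 across the pairs. In SAS it was 25.38 to 95.06. Of the 70 named genes called, 12 lost the call when 1 of the ANT pairs was left out, and 10 moved by over 1.5-fold. The values without a pair are given beside the genes that lost the call, and beside some of the others.

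Promoter sequences were read from RefSeq (GRCm38.p6, the build of the counts), as the 250 bases before each annotated start, on the strand of the gene. Of the 9 genes, 7 had an entry. The windows of Dntt and Rag1 are shown because both genes serve receptor gene assembly while Dntt transcripts were abundant in ANT and Rag1 transcripts were at or near 0. Those of Sox4 and Cd55 are shown as a gene higher in SAS and a gene higher in ANT, and that of Cd55b because it is the near copy of Cd55. Capitals mark E-boxes (CANNTG, the site class of the E proteins, which drive many genes of thymocytes). Dntt lies at chr19:41029025-41029274 on the plus strand, Rag1 at chr2:101649533-101649782, Sox4 at chr13:28953700-28953949, Cd55 at chr1:130462745-130462994 and Cd55b at chr1:130423044-130423293, all 4 on the minus strand.
Dntt: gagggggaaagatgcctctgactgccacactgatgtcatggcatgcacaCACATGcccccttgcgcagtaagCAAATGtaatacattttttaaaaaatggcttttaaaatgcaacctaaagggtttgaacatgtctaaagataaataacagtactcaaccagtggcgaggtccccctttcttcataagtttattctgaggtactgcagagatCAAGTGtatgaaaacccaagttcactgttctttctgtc
Rag1: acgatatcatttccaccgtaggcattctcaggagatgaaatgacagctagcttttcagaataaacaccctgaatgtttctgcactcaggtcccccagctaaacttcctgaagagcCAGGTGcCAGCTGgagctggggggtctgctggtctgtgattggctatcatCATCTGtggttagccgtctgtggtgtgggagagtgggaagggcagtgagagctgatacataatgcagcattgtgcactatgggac
Sox4: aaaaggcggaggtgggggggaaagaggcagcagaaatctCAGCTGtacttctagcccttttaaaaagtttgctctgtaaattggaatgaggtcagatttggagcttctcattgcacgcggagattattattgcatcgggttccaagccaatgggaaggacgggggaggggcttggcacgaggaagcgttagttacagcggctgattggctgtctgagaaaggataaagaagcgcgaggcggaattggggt
Cd55: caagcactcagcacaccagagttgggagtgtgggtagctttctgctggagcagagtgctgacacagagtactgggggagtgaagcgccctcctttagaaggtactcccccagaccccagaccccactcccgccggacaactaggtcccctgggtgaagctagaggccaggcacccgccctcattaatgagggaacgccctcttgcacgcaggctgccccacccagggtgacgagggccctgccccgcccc
Cd55b: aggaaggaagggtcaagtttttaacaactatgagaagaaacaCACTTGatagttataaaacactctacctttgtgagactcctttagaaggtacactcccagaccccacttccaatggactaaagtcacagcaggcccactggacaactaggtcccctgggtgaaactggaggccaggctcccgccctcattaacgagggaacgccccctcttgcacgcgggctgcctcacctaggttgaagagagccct

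The E-box count was 3 in the Dntt window (first bases 201, 178 and 38 before the start), 3 in that of Rag1 (135, 128 and 85), 1 in that of Sox4 (211) and 0 in that of Cd55. Of the other windows, Rag2 had 1, Ptcra 2 and Cd8a 2. Across all 32851 windows of this length, 66.2% held at least 1 E-box. Both strands were also searched for the core of a Runx site (TGTGGT), an Ikaros site (TGGGAA), a TCF and LEF site (CTTTGA), an AP-1 site (TGANTCA), a GC box (GGGCGG) and the box bound by TBP (TATAAA). The Rag1 window held 2 Runx matches, of which the one at 81 overlaps the E-box at 85, and 14.1% of all windows held at least 1. The Ikaros letters matched once in Rag1 (52 bases before the start), Sox4 (100) and Cd8a (89) and at 2 places in Ptcra (84 and 32), against 21.6% of all windows with at least 1 match. Cd55 had 2 GC boxes (77 and 7 bases before the start) and Cd55b had 1 (69), beside 32.7% of all windows. The TBP letters were found in the Cd55b window alone among the 7 windows and that of Cd55b (197 bases before the start, 12.4% of all windows). None of the 8 windows held the TCF and LEF or the AP-1 letters, which were present in 13.8% and 6.75% of all windows. The share of G and C was 41.6% for Dntt and 64.0% for Cd55, with a median of 52.4% over all windows. Aligned with each other, the Cd55 and Cd55b windows were identical in 169 of 273 columns (61.9%), and 46 columns were gaps. These matches describe letters only, since no binding was measured.

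The 9 genes did not move as a block. Of the 6 tested, 2 were called higher in SAS (Cd24a and Sox4) and 3 higher in ANT (Dntt, Cd8b1 and Cd55), at an adjusted p under 0.05 in edgeR's quasi-likelihood test. Cd8a was not called. Among all 12619 genes tested, 37.4% were called, 19.8% higher in SAS and 17.7% higher in ANT. These shares are also the background for the counts of the gene lists below. A difference of at least 8-fold was called for 4 of the 6 genes (Dntt, Cd24a, Cd8b1 and Sox4), beside 3.95% of all genes tested, where 3.53% were so much higher in SAS and 0.412% in ANT. At least 4-fold was called for 5 of the 6, beside 7.06% of all. The 4 libraries of a clone did not overlap those of the other for 5 of the 6 genes, and for 38.1% of all genes. The median absolute log2 fold change was 3.54 for the 6 genes and 0.346 for all genes tested. These figures leave out Rag1, Rag2 and Ptcra, which had too few counts to test. The lowest level of the other 6 in any library was 0.353 CPM, and the filter passed genes with 0.345 CPM in 4 libraries, so none of the 6 passed through 1 clone alone.

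**Figure D1:**
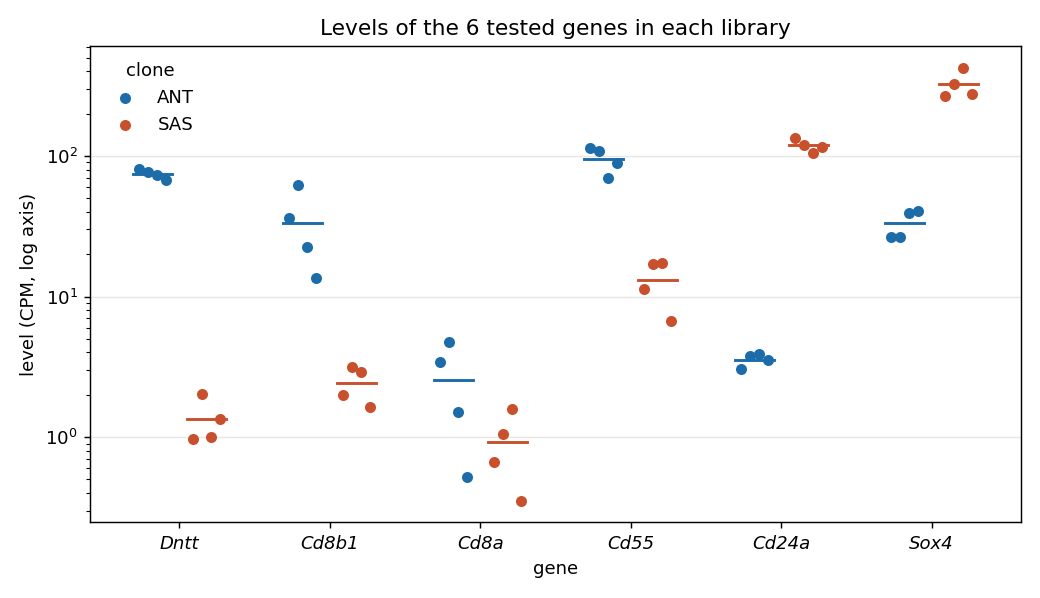
Level of each of the 6 tested genes in each library, in CPM on a log axis, with ANT in blue and SAS in orange, replicates from left to right in number order and a bar at the mean of 4 libraries. The clones are apart for every gene except Cd8a, where the ANT libraries spread from 0.517 to 4.78 CPM over the SAS range.

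Among the genes of receptor assembly, Dntt transcripts were plentiful in ANT. Dntt (ENSMUSG00000025014.12, chr19:41029275-41059525, 13 exon blocks in GENCODE M21) stood at 80.4, 77.4, 72.9 and 67.6 CPM in ANT libraries 1, 3, 4 and 5, and at 0.975, 2.03, 1.001 and 1.35 CPM in SAS libraries 1, 2, 3 and 6. The lowest ANT library was 33.2 times the highest SAS library. Dntt was thus lower in SAS by 55.8-fold (log2 fold change -5.80, SE 0.22, adjusted p = 4.96e-08), the 105th largest change of all genes tested. The ANT libraries were close together (74.6 ± 5.58 CPM, a coefficient of variation of 7.48%), also across the pairs named above. The SAS level (1.34 ± 0.493 CPM) rested on 29 to 58 counts per library, well above 0.

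Rag1 and Rag2, the recombinase genes, were at or near 0 at this depth. Rag1 had 0 counts in every ANT library and 1, 1, 0 and 0 in SAS libraries 1, 2, 3 and 6. Rag2 had 0 counts in all 8 libraries. A group sum of 0 allows up to 3 counts, or 0.0266 CPM in ANT and 0.0247 CPM in SAS, as a matter of counting error only. Both genes lie on chromosome 2, 5752 bases apart (Rag1 at chr2:101638282-101649501 and Rag2 at chr2:101624718-101632529), and both overlap B230118H07Rik, Rag1 on the same strand by 80 exon bases and Rag2 on the other strand by 208. B230118H07Rik itself was called higher in ANT, with 72 counts there against 4 (log2 fold change -4.12, adjusted p = 0.000337). At 0.0320 ± 0.0250 CPM in SAS, it passed the filter through ANT alone, so its direction was set by the filter.

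Ptcra (chr17:46755663-46763712), the gene of the pre-TCR alpha chain, had 2 counts, both in ANT replicate 5. Its transcript shares stretches of up to 206 bases with 263 other genes, and the treatment of reads that match several places is not given in the sources used here. With Rag1 and Rag2 it makes 3 genes that failed the filter, and no direction is given for any of them. Without the filter, edgeR gave Rag1 an adjusted p of 0.31 and Ptcra one of 0.319. Dntt was therefore the only one of the 4 assembly genes with more than 2 counts in any group.

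The factors that join the cut DNA ends are used by many cell types, and they showed no common direction. Of 15 such genes, all tested, 3 were called higher in SAS and 3 higher in ANT, beside 19.8% and 17.7% of all genes tested. The other 9 had no call, and the median log2 fold change was 0.15 against -0.0032 for all genes. Dclre1c, which encodes Artemis, the nuclease that opens hairpin ends, was higher in SAS (25.7 ± 2.64 CPM in ANT, 41.1 ± 3.22 in SAS, a log2 difference of 0.68, adjusted p = 0.000795). Trp53bp1, a protector of broken ends, was also higher in SAS (a log2 difference of 0.58, adjusted p = 0.000788). Atm, the kinase that signals breaks, was higher in ANT (207 ± 24.2 and 143 ± 10.4 CPM, -0.53, adjusted p = 0.0035). Lig4, the ligase of the final step, was not called (14.2 ± 2.32 and 15.8 ± 2.53 CPM). The other 3 calls, Xrcc6 higher in SAS and Xrcc4 and Paxx higher in ANT, were lost without 1 library: Xrcc6 without ANT 4, ANT 5 or SAS 1 (adjusted p 0.0625 to 0.0689), Xrcc4 without any of 5 libraries (0.0706 to 0.0888) and Paxx without any of 6 (0.0522 to 0.0788). Without ANT 4 and 5 the adjusted p of Xrcc6 was 0.129, and without ANT 1 and 3 those of Xrcc4 and Paxx were 0.304 and 0.191. Scaling by total counts alone left 1 call higher in ANT and gave 5 higher in SAS.

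Transcription factors known to act on the recombinase or Dntt genes were also mixed. Of 15, all tested, 4 were called higher in SAS and 2 higher in ANT, beside 19.8% and 17.7% of all genes tested. The other 9 had no call, and the median was 0.045. The count higher in ANT was 0 without SAS 1, without SAS 6 or without ANT 4 and 5. Myb, a factor of proliferating thymocytes, stood at 46.9 ± 6.44 CPM in ANT and 784 ± 24.5 in SAS (a difference of 4.06 on the log2 scale, SE 0.13, adjusted p = 1.51e-08). Zfp608, a repressor of the Rag genes in thymocytes, was at 1.08 ± 0.161 and 13.8 ± 0.573 CPM (3.68, adjusted p = 1.03e-07). Tcf3, which encodes the E proteins that bind E-boxes, was 98.0 ± 17.0 CPM in ANT and 193 ± 34.7 in SAS (0.98, adjusted p = 0.000886), while its partner Tcf12 was not called (185 ± 13.7 and 202 ± 11.2 CPM). Satb1, the chromatin organiser needed for Rag expression in thymocytes, was higher in ANT (1119 ± 193 and 773 ± 116 CPM, -0.53, adjusted p = 0.0209), as was Bcl11b, a factor of T lineage commitment (530 ± 143 and 309 ± 79.3 CPM, -0.78, adjusted p = 0.021). Both lost the call without SAS 1 or without SAS 6 (adjusted p 0.0523 to 0.0626), and without ANT 4 and 5 (Satb1 at -0.33, adjusted p = 0.088, and Bcl11b at -0.42, adjusted p = 0.135).

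Immature B cells also use Dntt, so 5 genes of B cell precursors were read beside it. Vpreb1, a surrogate light chain gene, had 48 counts in ANT and 58 in SAS, Igll1 had 5 and 1, Vpreb3 had 0 and 12, and Cd93 had 33 and 54. The summed level of the 5 genes was 274.3 to 911.2 CPM in ANT and 68.16 to 114.8 CPM in SAS, nearly all of it Il7r, a receptor gene that T cells also express. Of the 9 general B cell markers 3 were tested, 1 of them was called higher in ANT (Bank1, 2.79 ± 0.659 and 0.289 ± 0.190 CPM), and their sum was 4.622 to 5.263 CPM in ANT and 1.51 to 3.786 CPM in SAS. Both sums were higher in the clone with more Dntt, while Vpreb1, Vpreb3 and Cd93 had more counts in SAS. The part of B-lineage cells in the Dntt difference was not tested.

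Genes of CD4+CD8+ (double-positive) thymocytes, the stage at which the TCR alpha gene is assembled, were mixed. Of 13 genes 12 were tested, and 4 were called higher in ANT, 2 higher in SAS and 6 not, with a median of -0.065. The count higher in ANT was 2 without ANT 3 or without SAS 6, and the count higher in SAS was 1 without any library other than ANT 3. Ccr9, the receptor for the thymic chemokine CCL25, was higher in ANT (108 ± 8.86 and 35.9 ± 3.97 CPM, log2 fold change -1.60, SE 0.11, adjusted p = 3.13e-06). Themis, an adaptor needed for positive selection, was higher in ANT (369 ± 104 and 169 ± 10.1 CPM, -1.13, adjusted p = 0.000801), and Myl10 was low but higher in ANT (1.70 ± 0.526 and 0.658 ± 0.305 CPM, adjusted p = 0.0215), as was Aqp11, a water channel gene (3.05 ± 1.41 and 1.54 ± 0.189 CPM, -0.98, adjusted p = 0.0337). Glcci1 was higher in SAS (6.41 ± 1.085 and 12.1 ± 2.56 CPM, 0.92, adjusted p = 0.00348). Tctex1d1 had no count. The Myl10 call was lost without ANT 3 or SAS 6 (adjusted p 0.0567 to 0.0619) and without ANT 1 and 3 (adjusted p = 0.144). The Aqp11 call was lost without ANT 1, ANT 3, SAS 1, SAS 3 or SAS 6. The other call in SAS, Endou at 0.135 ± 0.165 and 0.562 ± 0.190 CPM, was lost without any of 7 libraries, and its log2 fold change of 2.04 was 3.18 without ANT 3, 1.13 without ANT 4 and 5 (adjusted p = 0.142) and 4.70 without ANT 1 and 3.

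Of 17 early thymic progenitor genes, 5 passed the filter, and 3 of these were called higher in SAS and 0 higher in ANT. Of the 3, Kit and Mef2c were under the filter level of 0.345 CPM in every ANT library (at most 0.103 and 0.241 CPM). They passed the filter through SAS alone, so their direction was set by the filter. Kit, the stem cell factor receptor gene, had 5 counts over the ANT and 2140 over the SAS libraries (0.0431 ± 0.0517 and 17.5 ± 5.84 CPM, log2 fold change 8.50, adjusted p = 1.68e-06). Gfi1, a transcriptional repressor active in lymphoid progenitors and activated T cells, was at 18.8 ± 1.44 and 86.8 ± 3.26 CPM (log2 fold change 2.20, adjusted p = 1.24e-07), and Mef2c was at 0.132 ± 0.0749 and 2.24 ± 2.49 CPM (log2 fold change 4.03, adjusted p = 0.00241, and 2.87 without SAS 2). The log2 fold change of Kit was 9.28 without ANT 1. Notch1, the receptor gene of T lineage commitment (290 ± 83.8 and 333 ± 85.6 CPM), and its target Dtx1 (79.9 ± 31.4 and 68.0 ± 32.8 CPM) were tested and not called. The other 12 genes did not pass the filter, among them Cd34 with 3 and 14 counts, Tal1 with 0 and 2, Lyl1 with 13 and 25, Hhex with 8 and 4, Hes1 with 36 and 8, and Notch3 with 5 and 39.

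**Figure D2:**
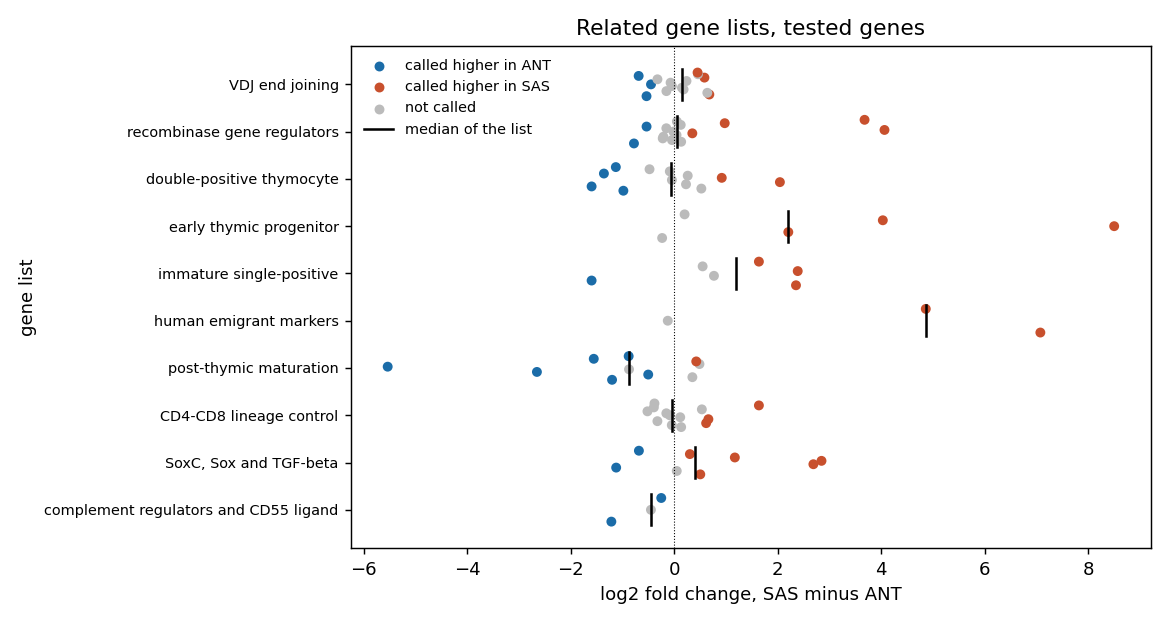
Log2 fold change (SAS minus ANT) of each tested gene in 10 lists related to thymic development, maturation and the functions of the 9 genes, with called genes in blue (higher in ANT) or orange (higher in SAS), other genes in grey and a bar at the median of each list. Post-thymic maturation genes lie mostly to the left (median -0.88), and the end-joining and regulator lists centre near 0 (0.15 and 0.045).

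Cd24a and Sox4, which decline as thymocytes mature, moved the other way from Dntt, itself a gene of immature thymocytes. The genes of double-positive thymocytes described above were mixed. Cd24a (ENSMUSG00000047139.9, chr10:43578284-43584265), the gene of the glycolipid-anchored antigen CD24, stood at 3.04, 3.75, 3.93 and 3.52 CPM in ANT libraries 1, 3, 4 and 5, and at 135, 120, 106 and 116 CPM in SAS libraries 1, 2, 3 and 6. Every SAS library was at least 26.9 times every ANT library, and within a clone the highest library was at most 1.29 times the lowest. The fold was 33.5 (log2 fold change 5.07, SE 0.13, adjusted p = 7.87e-09), and by its p-value Cd24a ranked 4th of all genes tested. Its transcript shares 258 bases with Gm15352, at 91.9% identity, and 228 bases with Gm6212. Gm15352 had 0 counts in all libraries.

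CD24 is also carried by B cells, red cell precursors, dendritic cells and granulocytes. Of 9 dendritic cell markers 0 passed the filter. Their sum was 0.2163 to 0.5145 CPM in ANT and 0.7388 to 1.262 in SAS, and Xcr1 and Clec10a had 0 counts. The 7 myeloid markers summed to 4.3 to 7.101 CPM in ANT and 3.934 to 10.31 CPM in SAS, and of the 3 tested, Itgam was called higher in SAS and Cd68 higher in ANT (lost without ANT 4 and 5, adjusted p = 0.0997). The 6 erythroid markers, with 3 tested and 0 called, summed to 0.8277 to 12.89 CPM in ANT and 1.277 to 5.855 CPM in SAS. The dendritic cell sum was thus higher in SAS, as Cd24a was, mostly through Itgax (2 and 49 counts) and Zbtb46 (7 and 28). Flt3 had 33 and 35 counts. The sum of the B cell markers went the other way (4.622 to 5.263 CPM in ANT, 1.51 to 3.786 CPM in SAS). The part of other cells in the Cd24a difference was not tested. In bulk RNA a change in the number of cells of a type and a change in RNA per cell cannot be told apart.

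Sox4 (ENSMUSG00000076431.4, chr13:28948919-28953713, a single exon), of the SoxC group of transcription factors, was at 26.4, 26.6, 39.4 and 40.7 CPM in ANT libraries 1, 3, 4 and 5, and at 266, 324, 425 and 276 CPM in SAS libraries 1, 2, 3 and 6. The lowest SAS library was 6.52 times the highest ANT library. Within ANT the level followed the pairs, with replicates 4 and 5 above replicates 1 and 3. Sox4 was 9.69-fold higher in SAS (3.28 on the log2 scale, SE 0.21, adjusted p = 1.82e-06), and between 3.01 and 3.58 on the log2 scale when either ANT pair was left out. The noncoding gene Gm26735 covers 2616 exon bases of Sox4 on the opposite strand. It was called in the same direction (0.202 ± 0.0829 and 2.78 ± 0.870 CPM, 3.75, adjusted p = 2.85e-05), with 23 counts in ANT and 334 in SAS beside 3766 and 38891 of Sox4. At that ANT level Gm26735 passed the filter through SAS alone, so its direction was set by the filter. The libraries were strand-specific per the labels, but the strand setting of the counting is not given in the sources used here.

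Other Sox genes and the TGF-beta pathway, which induces Sox4 in T cells, were read from a list of 10. Of the 8 tested, 5 were called higher in SAS and 2 higher in ANT, with a median of 0.40. The 5 fell to 3 without ANT 3, without ANT 4, without SAS 3 or without ANT 1 and 3. The SoxC gene Sox12 was low and higher in SAS (0.438 ± 0.310 and 2.86 ± 0.579 CPM, log2 fold change 2.69, adjusted p = 0.000629, and 3.29 without ANT 5), and Sox13 likewise (0.0873 ± 0.0865 and 0.664 ± 0.332 CPM, 2.85, adjusted p = 0.00596). Sox13 was at 3.67 without ANT 1, 2.17 without ANT 4 and 5 and 4.08 without ANT 1 and 3. Its ANT level was at most 0.207 CPM, so it passed the filter through SAS alone and its direction was set by the filter. Sox11, the third SoxC gene, had 1 and 10 counts. Skil, a TGF-beta target that restrains SMAD factors, was higher in SAS (206 ± 24.6 and 292 ± 37.2 CPM, 0.50, adjusted p = 0.00941). The receptor gene Tgfbr2 was higher in ANT (426 ± 68.4 and 265 ± 27.98 CPM, -0.68, adjusted p = 0.00255), as was the inhibitory SMAD gene Smad7 (191 ± 60.9 and 87.8 ± 22.2 CPM, -1.12, adjusted p = 0.0045).

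Of 6 other genes of newly formed single-positive thymocytes, 3 were called higher in SAS and 1 higher in ANT, leaving 2 without a call, with a median of 1.20. Itm2a, a membrane protein gene induced during positive selection, was at 185 ± 51.3 CPM in ANT and 968 ± 108 in SAS (a log2 difference of 2.39, adjusted p = 9.68e-06). Tox, a nuclear factor of CD4 lineage development, was at 80.7 ± 2.59 and 251 ± 33.8 CPM (1.64, adjusted p = 2.64e-06), and Ccr4, a receptor that guides thymocytes into the medulla, at 8.30 ± 2.71 and 42.4 ± 7.996 CPM (2.35, adjusted p = 3.38e-05). The 1 gene higher in ANT was Ccr9. Several of these genes are also induced by TCR signals in mature T cells. Of 4 genes used as markers of human recent emigrants, 3 were tested and 2 called, both higher in SAS: Ikzf2, which encodes Helios (7.24 ± 1.65 and 976 ± 93.0 CPM, 7.07, adjusted p = 7.94e-09), and Ptk7, with 2 and 76 counts (4.86, adjusted p = 0.00057, 3.98 without ANT 4 and 5 and 7.24 without ANT 1 and 3). Ptk7 was at most 0.0368 CPM in any ANT library, so it passed the filter through SAS alone and its direction was set by the filter. Pecam1, which encodes CD31, was not called (275 ± 45.4 and 252 ± 18.0 CPM), and Cr2 had 21 and 8 counts.

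Cd55 (ENSMUSG00000026399.12, chr1:130439027-130462744, 10 exon blocks) moved in the direction of Dntt. It was at 114, 108, 69.8 and 88.6 CPM in ANT libraries 1, 3, 4 and 5, and at 11.3, 17.0, 17.3 and 6.65 CPM in SAS libraries 1, 2, 3 and 6. All ANT libraries were above all SAS libraries, the nearest pair 4.04-fold apart. Cd55 was 7.31-fold lower in SAS (-2.87 on the log2 scale, SE 0.29, adjusted p = 3.4e-05). Cd55b, next to it on the chromosome and 93.0% identical to it over 1053 bases of transcript, had only 5 counts in ANT and 2 in SAS, against 10767 and 1563 of Cd55. A short antisense gene, Gm16083, overlaps Cd55 by 102 exon bases and was not analysed here.

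Of the 11 complement genes and CD55 partners, 3 were tested. Adgre5, which encodes CD97, the receptor that binds CD55, was lower in SAS (609 ± 52.8 CPM in ANT, 262 ± 15.8 in SAS, a difference of -1.21 on the log2 scale, SE 0.10, adjusted p = 9.78e-06). Cr1l, which encodes Crry, the mouse regulator with a role like that of CD55, was at 112 ± 5.99 and 94.3 ± 4.03 CPM (-0.25, adjusted p = 0.0434), a call lost without any of 7 libraries and without ANT 4 and 5 (adjusted p = 0.0861). Cd46 was not called (13.7 ± 6.35 and 10.04 ± 0.7152 CPM). Cd59a, whose product blocks the final pore, had 0 and 16 counts and Cd59b had 4 and 5.

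Genes that rise as T cells mature after export were mostly higher in ANT, with Cd55. Of 10, all tested, 6 were called higher in ANT, 1 higher in SAS and 3 not, with a median of -0.88. Ly6c1, an antigen of mature and memory-type cells, was at 309 ± 74.6 and 6.65 ± 0.639 CPM (log2 fold change -5.53, SE 0.20, adjusted p = 4.4e-08), while its near copy Ly6c2, with which reads could be shared, was at 0.954 ± 0.599 and 1.34 ± 0.426 CPM. Il7r, the receptor gene for the survival cytokine IL-7, was at 544 ± 295 and 86.6 ± 19.8 CPM (-2.65, adjusted p = 0.000257, and -1.84 without ANT 4 and 5). The egress receptor gene S1pr1 (683 ± 104 and 233 ± 10.4 CPM, -1.55, adjusted p = 6.1e-06) and the lymph node homing receptor gene Ccr7 (449 ± 69.5 and 196 ± 33.6 CPM, -1.20, adjusted p = 0.000164) were also higher in ANT. H2-Q7, a Qa-2 gene with a near copy in H2-Q6, was at 847 ± 169 and 598 ± 83.7 CPM (adjusted p = 0.0309). That call was lost without any of 5 libraries or without ANT 4 and 5 (adjusted p = 0.141). H2-Q6, with which reads could be shared, had its higher mean in SAS and was not called (265 ± 60.9 and 337 ± 65.9 CPM, 0.35, adjusted p = 0.166). The CD45 gene Ptprc was higher in SAS (3297 ± 352 and 4429 ± 288 CPM, 0.43, adjusted p = 0.0183). Ptprc lost the call without ANT 4 (adjusted p = 0.0645) and without ANT 4 and 5 (adjusted p = 0.0856). Klf2 was not called (351 ± 184 and 192 ± 136 CPM), and its log2 fold change of -0.87 was -0.059 without ANT 4 and 5. Several of these genes also respond to activation of mature T cells.

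The co-receptor pair Cd8b1 and Cd8a lies on chromosome 6 with 35932 bases between the genes (Cd8b1 at chr6:71322788-71337494, Cd8a at chr6:71373427-71379173), and in cytotoxic T cells the encoded chains form a heterodimer. Cd8b1 was at 36.2, 62.0, 22.5 and 13.6 CPM in ANT libraries 1, 3, 4 and 5, and at 1.98, 3.16, 2.90 and 1.64 CPM in SAS libraries 1, 2, 3 and 6. The clones did not overlap, although ANT itself spread 4.57-fold, with replicates 1 and 3 above replicates 4 and 5. Cd8b1 was 13.9-fold lower in SAS (-3.80 on the log2 scale, SE 0.46, adjusted p = 0.000109). Without ANT replicates 1 and 3 it was -2.90 (adjusted p = 5.12e-05) and without ANT replicates 4 and 5 it was -4.37 (adjusted p = 1.26e-05).

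Cd8a was low in both clones. Its levels were 3.45, 4.78, 1.51 and 0.517 CPM in ANT libraries 1, 3, 4 and 5, and 0.670, 1.05, 1.59 and 0.353 CPM in SAS libraries 1, 2, 3 and 6. The ANT values ran from above every SAS library (replicates 1 and 3) down into their range (replicates 4 and 5). The fitted log2 fold change was -1.49 (SE 0.64, adjusted p = 0.0919), and 2 SE on either side span 1.16-fold to 6.76-fold lower in SAS. It passed the threshold without ANT 5 (-1.84, adjusted p = 0.0189), without ANT 4 and 5 (-2.19, adjusted p = 0.00538) and in DESeq2 (adjusted p = 0.0431). With a replicate block it was -1.94 and also passed. That fit takes the difference from replicates 1 and 3 alone, so its p-value does not measure the spread between the libraries. Without ANT 1 and 3 the log2 fold change of Cd8a was -0.16.

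Per base of exon, Cd8b1 exceeded Cd8a in all 8 libraries. The ratio of Cd8b1 to Cd8a was 25.75, 31.83, 36.44 and 64.42 in ANT libraries 1, 3, 4 and 5, and 7.246, 7.357, 4.478 and 11.37 in SAS libraries 1, 2, 3 and 6. Each ANT library thus had a higher ratio than each SAS library (39.6 ± 17.1 and 7.61 ± 2.84, exact two-sided permutation p = 0.0286 on the log scale, 0.0429 adjusted over 3 ratios), and 0.0286 is the smallest p that 4 against 4 libraries can give. As a share of Cd4 per base, Cd8b1 was 9.65% ± 5.62 in ANT and 0.723% ± 0.203 in SAS (exact permutation p = 0.0286, adjusted 0.0429). Cd8a was 0.302% ± 0.217 and 0.110% ± 0.0566 of Cd4 (exact permutation p = 0.2, adjusted 0.2). The Cd8b1 transcript shares stretches of up to 172 bases with 1066 other genes, and Cd8a shares none of at least 100 bases.

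**Figure D3:**
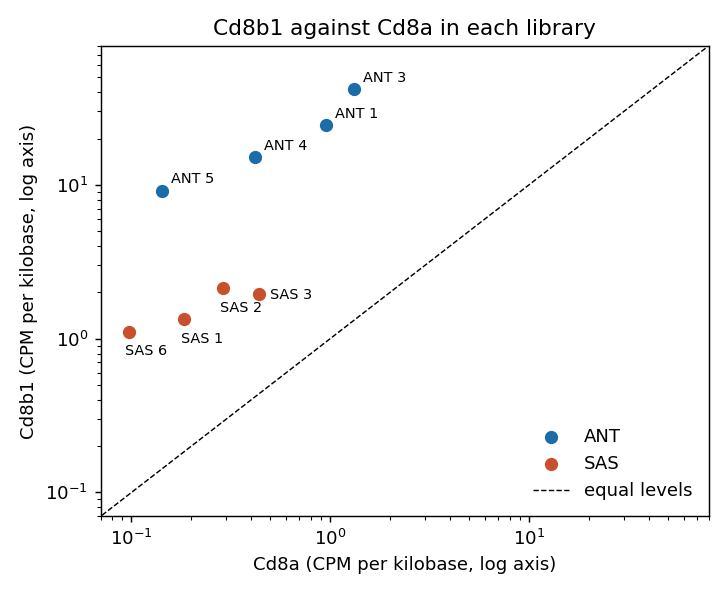
Cd8b1 against Cd8a in each library, in CPM per kilobase of exon on log axes, with ANT in blue, SAS in orange and a dashed line of equal levels. All 8 libraries lie above the line, and the ANT libraries lie farther above it (ratios of 25.75 to 64.42) than the SAS libraries (4.478 to 11.37).

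Markers of cytotoxic T and NK cells, read here because such cells carry CD8 or its partners, were mixed. Of 15 such genes 11 were tested, 7 were called higher in SAS and 3 higher in ANT, leaving 1 without a call. Their summed level was 123.4, 110, 93.72 and 85.04 CPM in ANT libraries 1, 3, 4 and 5, and 196.1, 163.5, 131.2 and 127.1 CPM in SAS libraries 1, 2, 3 and 6, so it was lower in the clone with more Cd8b1. Within ANT the sum was higher in replicates 1 and 3, as Cd8b1 was. Nkg7 was at 0.619 ± 0.405 and 35.7 ± 9.36 CPM (log2 fold change 5.84, 5.19 without ANT 4 and 5 and 6.96 without ANT 1 and 3). Ctsw was at 42.8 ± 15.4 and 83.0 ± 20.9 CPM, and Xcl1 had 0 and 815 counts. Xcl1, Gzmk, Ccl5 and Klrb1c, all called higher in SAS, were under 0.345 CPM in every ANT library. They passed the filter through SAS alone, so their direction was set by the filter. The perforin gene Prf1 was higher in ANT (35.8 ± 4.03 and 3.69 ± 0.8855 CPM, log2 fold change -3.28, adjusted p = 9.21e-07), as were Klrd1 (13.1 ± 5.35 and 0.467 ± 0.146 CPM) and Gzma (2.05 ± 0.205 and 0.329 ± 0.209 CPM). Ncr1 had 0 counts, and Klrk1 had 7 and 2. For γδ and NKT cells, 1 of 2 measured genes was tested and not called, and the sum was 414.6 to 549.7 CPM in ANT and 355.2 to 435 CPM in SAS, nearly all of it Trdc, beside 3 and 25 counts of Zbtb16. The part of other cells in the Cd8b1 difference was not tested.

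Factors that set the choice between the CD4 and CD8 fates were read from a list of 13. All were tested, and 3 were called higher in SAS and 0 higher in ANT, beside 19.8% and 17.7% of all genes tested. The other 10 had no call, and the median was -0.046. The count higher in ANT was 4 without ANT 1 and 3, and 1 without either of these libraries alone. Zbtb7b, which encodes ThPOK, the repressor of CD8 genes in CD4 cells, was at 201 ± 40.4 CPM in ANT and 155 ± 23.3 in SAS (a log2 difference of -0.38, adjusted p = 0.0868, and called without ANT 3 at -0.47, adjusted p = 0.0464, and without ANT 1 and 3 at -0.61, adjusted p = 0.00726). Runx3, the factor of the CD8 fate, was at 76.3 ± 25.6 and 53.3 ± 18.8 CPM and was not called (-0.52, adjusted p = 0.183). The 3 called genes were Tox, the deacetylase gene Hdac1 (173 ± 8.74 and 274 ± 6.28 CPM, 0.66, adjusted p = 0.000166) and the chromatin remodeller gene Chd4 (660 ± 195 and 1012 ± 159 CPM, 0.62, adjusted p = 0.0385), the last lost without any of 5 libraries and without ANT 1 and 3 (0.29, adjusted p = 0.173).

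Per kilobase of exon, the levels of the 9 genes stood in a different order in each clone. In ANT, Dntt led (32.5 ± 2.43 CPM per kilobase), followed by Cd8b1 (22.6 ± 14.2), Cd55 (19.6 ± 4.17), Sox4 (6.95 ± 1.63), Cd24a (1.38 ± 0.150), Cd8a (0.705 ± 0.526) and Ptcra (0.0134). The ranges of the 4 libraries overlapped for the neighbours Dntt and Cd8b1, Cd8b1 and Cd55, and Cd24a and Cd8a. In SAS, Sox4 led (67.3 ± 15.2 CPM per kilobase), followed by Cd24a (46.2 ± 4.70), Cd55 (2.69 ± 1.05), Cd8b1 (1.63 ± 0.489), Dntt (0.584 ± 0.215), Cd8a (0.252 ± 0.146) and Rag1 (0.00248). There, Cd55 and Cd8b1, and Dntt and Cd8a, overlapped. The spread within a clone was unequal: the coefficient of variation was 7.48% for Dntt and 62.9% for Cd8b1 in ANT, and 10.2% for Cd24a and 38.9% for Cd55 in SAS.

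The genes whose profile over the 8 libraries was nearest to that of each gene were found by the root mean square difference of centred log2 CPM, among 8291 genes at 10 CPM or more in 1 clone (8292 for Cd8a). The difference between the clones is part of every such distance. Nearest to Dntt were Ly6c1 (0.343), the transporter gene Slc16a5 (0.609) and the NK receptor gene Klrd1 (0.688). Nearest to Cd24a were Endod1 (0.194), the cytokine gene Lif (0.303) and the TCR-induced factor gene Egr3 (0.313), and nearest to Sox4 were Ybx3 (0.129), Stx11 (0.169) and Mmd (0.232). Cd55 was nearest to Lair1 (0.265), Gprin3 (0.315) and the IL-18 receptor gene Il18r1 (0.331). Cd8b1 was nearest to the carbonic anhydrase gene Car2 (0.465), Dapl1 (0.512) and Ifit1bl1 (0.517), and Cd8a to Zc3h6 (0.586), Fbxl4 (0.628) and P2ry10 (0.641). The distances for the Cd8 genes and Dntt were larger than those for Sox4, Cd24a and Cd55.

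**Figure D4:**
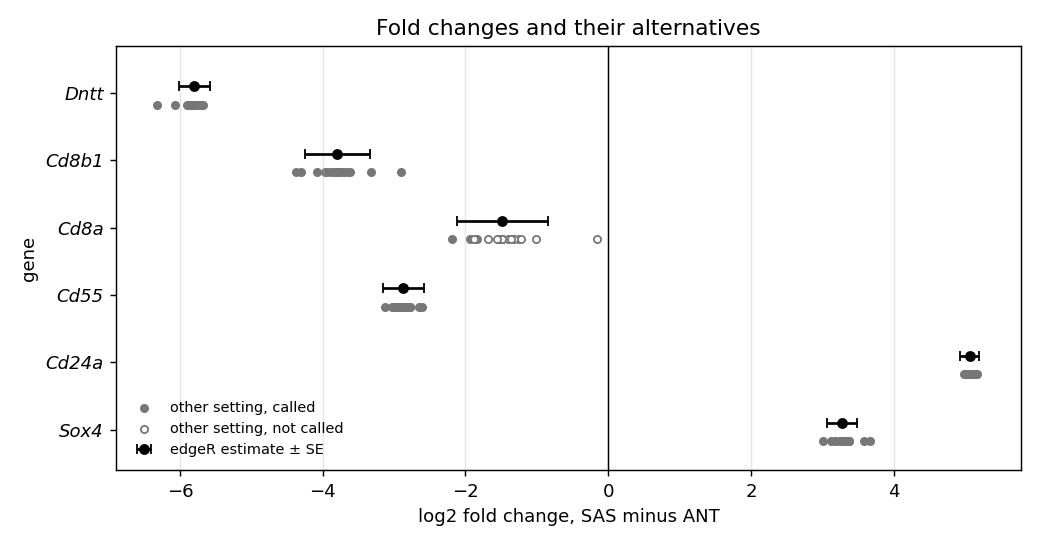
Log2 fold change (SAS minus ANT) of the 6 tested genes, with black points for the edgeR estimate and bars of 1 SE, and grey points for each other setting (filled where called, open where not). Dntt, Cd8b1, Cd55, Cd24a and Sox4 stay on their side and called throughout, and Cd8a runs from -2.19 to -0.16, called in some settings only.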

How the data were processed

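The measurements are raw read counts, in whole numbers, that the authors deposited as 1 table of 39056 Ensembl genes in 8 libraries of sorted mouse CD4+ T cells. The submitters' processing notes name STAR, featureCounts and mm10, without versions. The annotation and the strand and multi-mapping settings are not given in the sources used here. Of the gene IDs, 38872 matched GENCODE M21 without the version suffix and 184 did not.

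Genes passing filterByExpr were tested with edgeR 4.0.16 (R 4.3.3), with TMM scaling, a robust quasi-likelihood fit on all 8 libraries without covariates, and Benjamini-Hochberg adjustment over 12619 genes. The script was tested on simulated data. Standard errors (SE) were derived from the F statistic, as the size of the log2 fold change over the root of F. Levels per length divide CPM by the union exon length. Similar transcripts (at least 90% identity over 100 bases) were found with BLAST 2.17.0. Ratios of 2 genes were compared with an exact permutation test.

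The 9 genes, the 10 related lists, the 8 marker lists and the rule for named genes were chosen with earlier results of these data known. Named are the 9 genes, 15 fixed genes (1 more is not reported here), up to 3 genes per list and direction with the smallest p, the most abundant markers and the 3 nearest profiles. Further genes, mostly with few counts, were named after their values were seen. Same-numbered replicates (1 and 3 in both clones) had correlations of deviations of 0.293 and -0.121, and differently numbered ones -0.341 to 0.306. These values cannot settle whether the numbers pair the samples, and the main fit did not take them as pairs. Alternatives were RLE, upper-quartile and total-count scaling, no filter, a filter of 5 CPM in 4 libraries, DESeq2 1.42.0, limma-voom (limma 3.58.1), a test against 1.5-fold, a replicate block, and leaving out each library or either ANT pair.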

Additional observations from a re-analysis of the deposited data

How the results depend on the processing

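In all 19 alternatives run for each, Dntt (log2 fold change -6.31 to -5.67), Cd24a (4.99 to 5.16), Sox4 (3.01 to 3.66), Cd8b1 (-4.37 to -2.90) and Cd55 (-3.12 to -2.61) kept their direction and call. Of the 9 genes, 2 were called higher in SAS in every alternative and 3 to 4 higher in ANT. Cd8a (-1.49, not called) was called in DESeq2 (-1.49, adjusted p = 0.0431), without ANT replicates 4 and 5 (-2.19) and with a replicate block (-1.94). The block takes the difference from replicates 1 and 3 alone, so its p-values do not measure the spread between the libraries. For Cd8a, the cause of these calls was not tested. Without 1 library it was -1.89 to -1.01, called without ANT replicate 5 alone (-1.84, adjusted p = 0.0189), and the filter of 5 CPM removed it; the cause was not tested.

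The test against 1.5-fold called 1836 of all genes in place of 4725, and 13 in place of 25 (higher in SAS) and 8 in place of 19 (higher in ANT) of the 85 list genes tested. Leaving out 1 library gave 3964 to 4700, 20 to 24, and 11 to 18 calls, with the 11 without SAS replicate 6. Without ANT replicates 4 and 5 it was 5913 of all genes and without ANT replicates 1 and 3 it was 4779. The required fold makes that test stricter by construction; the cause of the other counts was not tested. Of all calls, 52.8% were higher in SAS with TMM and 64.8% with total-count scaling, which moves the median of all genes from -0.0032 to 0.094. Of 70 named genes called, 49 kept the call in every alternative and 11 lost it without some library. Reversed values were 0.050 for Cd4 and 0.075 for Cd3e (total counts), 0.012 for Cd3e and -0.074 for Lig4 (replicate block), 0.030 for Cd3e and -0.051 for Lig4 (without ANT replicates 4 and 5), and 0.45 for Zc3h6 (without ANT replicates 1 and 3), none of them called. No cause of these was tested. The replicate block changed no other call among the 9 genes. Whether numbers 1 and 3 pair the samples is not given, and the correlations of deviations of 0.293 and -0.121 cannot settle it. Depth limits Rag1, Rag2 and Ptcra, for which 3 counts in a clone are 0.0266 CPM (ANT) or 0.0247 CPM (SAS).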
